A study of Mus musculus with 6 samples.

Results

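The genes described here are the nuclear-encoded subunits of the mitochondrial respiratory chain and of ATP synthase, measured in single cells of the mouse hypothalamus. They were chosen by symbol alone, as the genes whose names start with Ndufa, Ndufb, Ndufc, Ndufs, Ndufv, Uqcr, Cox4 to Cox8 or Atp5, together with Sdha to Sdhd, Cyc1 and Cycs, leaving out assembly factors of the Ndufaf series, symbols starting Atp5s and pseudogenes. This gave 84 of the 18204 genes in the table. Complex I held 36 of them, complex II 4, complex III 9, cytochrome c 1, complex IV 19 and ATP synthase 15. The study applied Drop-seq to hypothalamus from C57BL/6J mice at 8 weeks of age. Drop-seq captures single cells in droplets, reads the 3′ ends of their transcripts and counts each captured molecule once, as a unique molecular identifier (UMI). The libraries were 3 wild-type (WT) and 3 from IDOL knockout (KO) mice, and values by library are given below in the order of their numbers. IDOL is the ubiquitin ligase encoded by Mylip, and the labels gave neither the deleted part of the gene nor the number of animals behind a library. Library preparation took place on 2 days with genotypes mixed, and which libraries belonged to which day was not given.

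Electrons enter the respiratory chain from NADH at complex I and from succinate at complex II, pass through complex III and cytochrome c, and reach oxygen at complex IV. Complexes I, III and IV pump protons across the inner mitochondrial membrane, and ATP synthase uses the gradient to make ATP. Some core subunits of complexes I, III and IV and some subunits of ATP synthase are encoded by the mitochondrial genome. The subunits described here, which include other core subunits of complexes I and III, are made from nuclear genes and imported. Several complex IV and ATP synthase subunits exist as alternative isoforms with tissue-biased use.

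Transcription of these nuclear genes is known to draw on the factors NRF1, the ETS-family factor GABP and YY1. Short core letters of their motifs were therefore looked for on both strands of the RefSeq promoters (build GRCm38.p6, 250 bases before to 50 bases after each annotated start, 300 bases in all), in which 68 of the 84 genes were found. The NRF1 letters GCATGCG stood in 12 of the 68 (17.6%), against 4.01% of the 27025 genes with a promoter in the reference and 6.42% of the 12467 that were also in the expression table. The ETS letters CCGGAAG stood in 16 (23.5%, against 9.93% and 16.5%), and the YY1 letters ATGGCGG in 10 (14.7%, against 4.69% and 7.84%). At least 1 of the 3 was found in 31 of the 68 promoters, but this was not counted for all genes, so the number has nothing to be read against. Promoters of 4 genes whose values recur below are shown, all on the minus strand of their chromosomes and read 5′ to 3′ along the gene, with the motif letters in capitals. Cox6a1 (chr5:115348909-115349208) and Uqcr11 (chr10:80406772-80407071) were called higher in astrocytes than in neurons in the main fit below, with overlapping levels. Ndufa8 (chr2:36049289-36049588) had among the smallest p-values between genotypes, and Atp5g1 (chr11:96075582-96075881) was higher in neurons by a wide margin.
Cox6a1: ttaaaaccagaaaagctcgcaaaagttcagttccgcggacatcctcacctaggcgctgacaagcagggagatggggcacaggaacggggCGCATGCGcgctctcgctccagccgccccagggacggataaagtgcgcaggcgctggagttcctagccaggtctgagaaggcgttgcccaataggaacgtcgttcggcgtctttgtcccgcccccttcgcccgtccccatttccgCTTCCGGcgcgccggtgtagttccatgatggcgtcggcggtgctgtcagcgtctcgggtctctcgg
Uqcr11: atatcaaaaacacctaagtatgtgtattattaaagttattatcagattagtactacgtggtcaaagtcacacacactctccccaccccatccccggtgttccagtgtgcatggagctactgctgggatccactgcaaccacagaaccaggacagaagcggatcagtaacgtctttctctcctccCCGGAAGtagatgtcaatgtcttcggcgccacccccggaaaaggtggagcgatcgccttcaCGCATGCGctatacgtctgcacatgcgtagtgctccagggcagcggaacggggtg
Ndufa8: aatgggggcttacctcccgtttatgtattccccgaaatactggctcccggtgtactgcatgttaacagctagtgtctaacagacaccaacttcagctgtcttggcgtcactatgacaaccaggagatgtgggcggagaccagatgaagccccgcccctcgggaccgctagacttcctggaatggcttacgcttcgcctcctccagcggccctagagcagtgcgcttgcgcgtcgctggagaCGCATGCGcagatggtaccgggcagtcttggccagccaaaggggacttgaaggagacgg
Atp5g1: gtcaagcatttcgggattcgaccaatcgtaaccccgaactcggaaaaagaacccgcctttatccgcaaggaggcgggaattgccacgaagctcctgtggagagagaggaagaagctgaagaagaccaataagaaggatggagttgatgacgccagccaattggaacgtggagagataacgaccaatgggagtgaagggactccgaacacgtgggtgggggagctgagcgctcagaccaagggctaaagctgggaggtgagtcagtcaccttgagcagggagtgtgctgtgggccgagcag
In Cox6a1, Uqcr11 and Ndufa8 the NRF1 letters matched both strands at overlapping positions, since the capitals CGCATGCG read the same on either strand. Cox6a1 and Uqcr11 also held the ETS letters, and Atp5g1 held none of the 3 sets. A match of letters is a description of the sequence and was not tested against binding or against the levels below.

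The table held 13994 barcodes with 1670993 to 4068886 UMIs per library, of which 9333 cells were kept, with 1514439 to 3644549 UMIs per library and a median of 804 to 1017 UMIs per cell. Of 13991 distinct barcode sequences, 3 occurred in more than 1 library. Cells were grouped without the 84 genes, without the genes of the mitochondrial genome and without genotype, and classes were named from marker genes, so each class name stands for cells like that type. There were 3121 neurons, 1646 astrocytes, 1270 oligodendrocytes, 590 oligodendrocyte precursors (OPC), 391 microglia, 718 endothelial cells, 373 tanycytes, 264 ependymal cells, 188 mural cells and 93 newly formed oligodendrocytes. Defining markers stood where the names put them: Snap25 reached 952 to 1180 UMIs per 1000000 (CPM) in neurons but 38.6 to 83.7 CPM in astrocytes, Agt 3490 to 5171 CPM in astrocytes, and Pdgfra 1766 to 2104 CPM in OPC. RNA free in the droplets was not removed, and its part in the levels below was not tested. Mylip UMIs over all cells numbered 68, 27 and 43 in WT but 2, 0 and 0 in KO, in keeping with the labels. All levels are CPM or percent of all UMIs of a class, and since only 3′ ends were counted, levels were not divided by gene length. Several subunits have paralogs or processed pseudogenes and the counting rule was not given, so reads shared between such copies may be split in an unknown way.

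Neurons devoted the largest measured share of their UMIs to the 84 genes, and microglia the smallest. The summed share in neurons was 3.10, 2.78 and 3.34% in WT and 2.76, 2.77 and 3.07% in KO. In microglia it was 1.03, 0.965 and 1.17% in WT and 0.925, 0.888 and 1.06% in KO, so every neuronal value lay above every microglial value. Between these came mural cells with 2.57% ± 0.335 (SD, n = 6 libraries), newly formed oligodendrocytes with 2.12% ± 0.293, astrocytes with 2.09% ± 0.246, OPC with 1.98% ± 0.216, tanycytes with 1.91% ± 0.0642, ependymal cells with 1.83% ± 0.287, endothelial cells with 1.73% ± 0.144 and oligodendrocytes with 1.70% ± 0.194. Mural cells, at 2.24 to 3.14%, overlapped neurons. Neighbours in the middle of this order, from newly formed oligodendrocytes down to oligodendrocytes, lay within each other's spread. Median depth did not follow this order: it was 1432 UMIs per cell in neurons, 572.5 in mural cells, 1418 in newly formed oligodendrocytes, 625.5 in astrocytes, 1077 in oligodendrocytes and 608 in microglia.

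**Figure D1:**
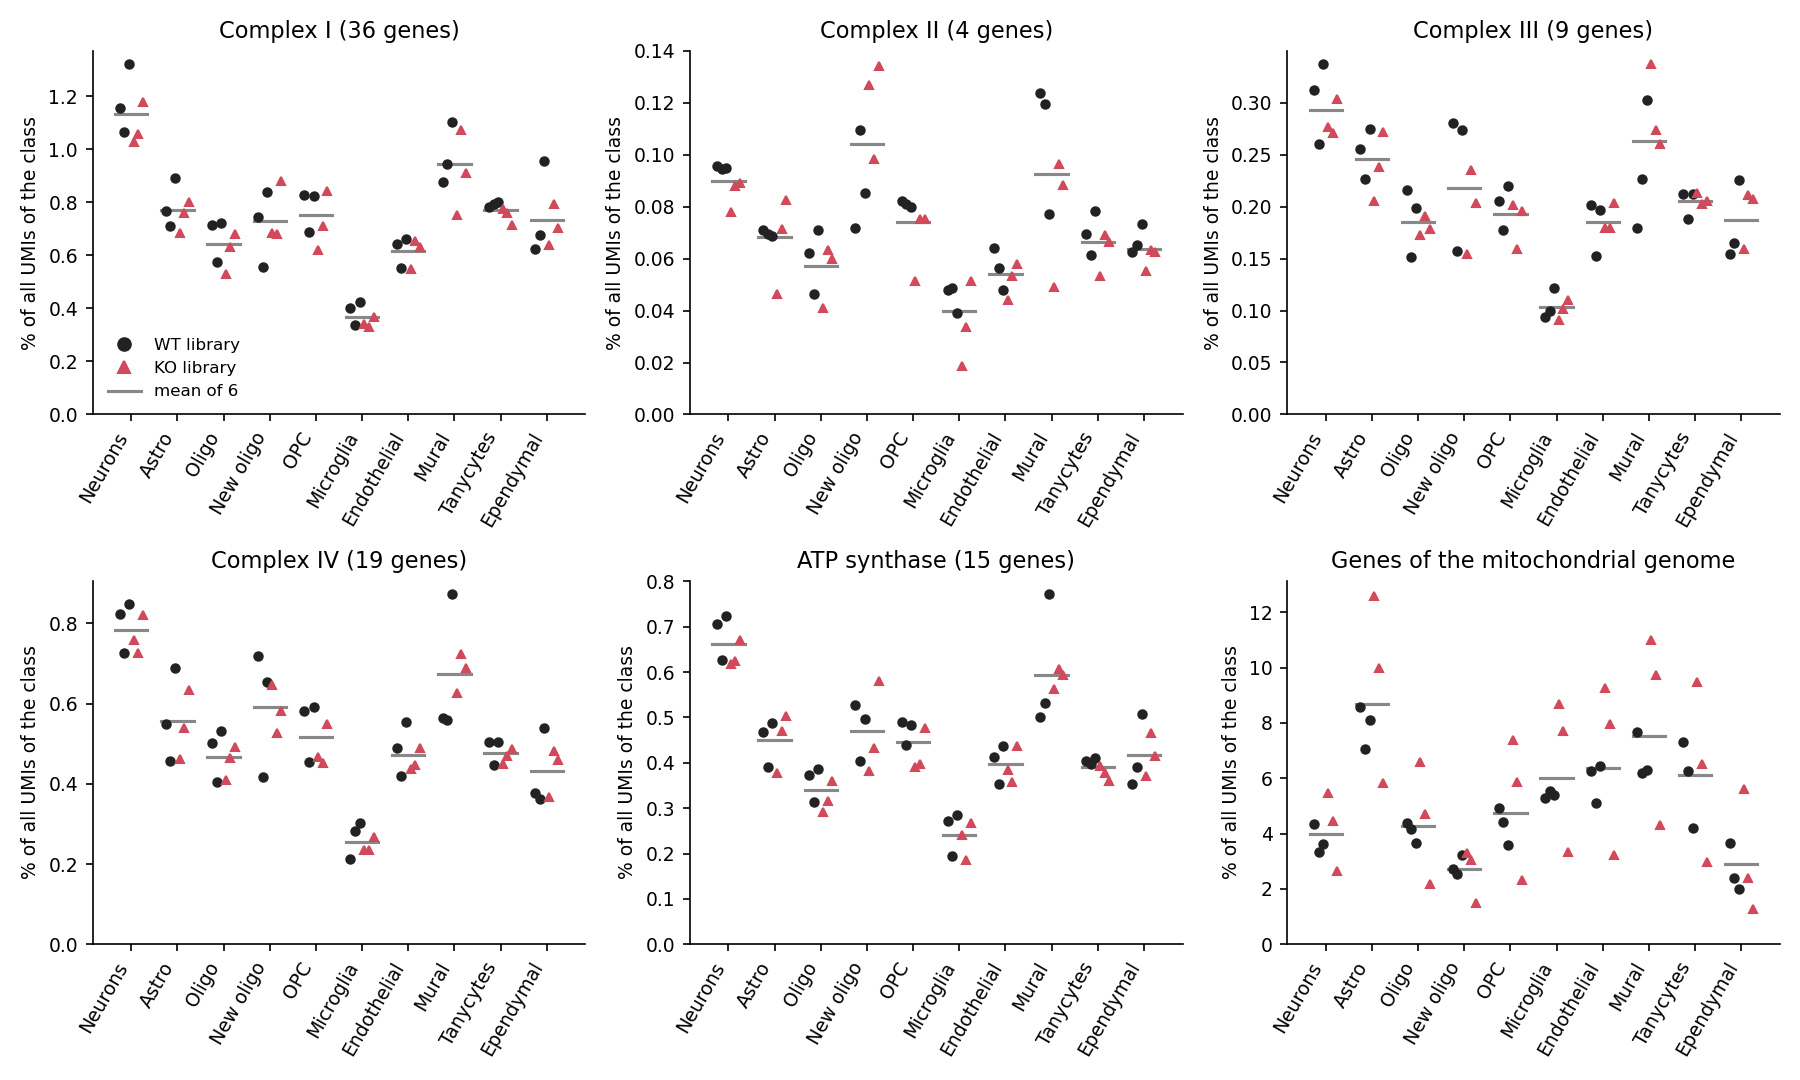
Summed level of each complex, in percent of all UMIs of a class, for 10 cell classes; black circles are WT libraries, red triangles KO libraries and grey bars the mean of 6 libraries. Neurons lie highest and microglia lowest for complexes I, III and IV and ATP synthase, while genes of the mitochondrial genome, in the last panel, are highest in astrocytes.

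Complexes I, III and IV and ATP synthase were each highest in neurons and lowest in microglia by mean level. Complex I took 1.14% ± 0.109 of neuronal UMIs (SD, n = 6 libraries), 0.769% ± 0.0734 in astrocytes and 0.366% ± 0.0382 in microglia. Complex IV took 0.783% ± 0.0535, 0.555% ± 0.0926 and 0.256% ± 0.0336 in the same classes, and ATP synthase 0.662% ± 0.0461, 0.450% ± 0.0523 and 0.241% ± 0.0420. Complex III, at 0.293% ± 0.0293 in neurons and 0.245% ± 0.0269 in astrocytes, overlapped between these classes, with 0.260 to 0.337% in neurons and 0.206 to 0.275% in astrocytes. Complex II was highest in newly formed oligodendrocytes at 0.104% ± 0.0241 and in mural cells at 0.0924% ± 0.0279, whose ranges held the neuronal mean of 0.0901% ± 0.00672, and lowest in microglia at 0.0399% ± 0.0123. Transcripts of the mitochondrial genome ran in another order, with 8.69% of UMIs in astrocytes, 7.54% in mural cells, 6.00% in microglia and 3.98% in neurons. That share was highest in KO1 and lowest in KO3 over all cells, at 6.67 and 2.92%, and its part in the levels of nuclear genes was not tested.

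Neurons were then set against each of 6 other classes in a single fit, library by library, to ask which subunits differ by cell type. The fit used edgeR's quasi-likelihood test with trimmed-mean (TMM) scaling and Benjamini-Hochberg adjustment over all 4555 genes tested, and a gene is called at an adjusted p under 0.05. These 6 comparisons share the same neuron sums and are not independent of each other. Of the 84 genes, 72 had enough counts to be tested. The other 12 (Atp5g2, Atp5l, Cox4i2, Cox6a2, Cox6b2, Cox7a1, Cox7b2, Cox8b, Cycs, Ndufa4l2, Ndufs3 and Ndufs5) did not.

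Against microglia 67 subunits were higher in neurons and 0 lower, with a median log2 fold change of 1.36 over the 72, where all genes had a median of 0.40 and 39.0% were called higher and 25.8% lower. Against OPC 62 were higher and 0 lower (median 0.73, all genes 0.15, with 34.2% of all genes higher and 26.6% lower). Against endothelial cells 58 were higher and 2 lower (median 0.76, all genes 0.20, with 40.5% higher and 31.0% lower), and against tanycytes 59 were higher and 1 lower (median 0.70, all genes 0.15, with 33.9% higher and 26.8% lower). Against oligodendrocytes 53 were higher and 4 lower (median 0.45, all genes 0.20, with 42.0% higher and 31.3% lower). Against astrocytes 34 were higher and 8 lower (median 0.23, all genes 0.08, with 38.6% higher and 33.6% lower), so the count there stood closest to that of genes in general. Higher calls in all 6 comparisons were made for 26 subunits and in 5 comparisons for 19 more, while 12 were lower in at least 1.

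Scaling changed the astrocyte comparison. With relative-log-expression (RLE) size factors 22 subunits were higher and 15 lower than in astrocytes, where 33.0% of all genes were higher and 37.6% lower, and the all-gene median shifted from 0.08 to -0.07. With library sizes alone, a setting added after the data had been seen, 62 were higher and 2 lower, where 52.1% of all genes were higher and 26.4% lower and the all-gene median was 0.48. DESeq2 called 24 higher and 17 lower, with 20.4% of all genes higher and 25.8% lower. The median of the subunits stood 0.14 above the all-gene median with TMM, 0.14 with RLE factors and 0.15 with library sizes alone.

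The counts and the summed share also varied with the depth of the cells, for reasons that were not tested. In neurons the summed share of the 84 genes was larger in deeper cells, from 1.88% ± 0.310 (SD, n = 6 libraries) in cells of 300 to 600 UMIs and 1.81% ± 0.173 at 600 to 1000 UMIs to 3.30% ± 0.275 at 2500 to 5000 UMIs. In oligodendrocytes the share stayed between 1.68 and 1.73% over the depths measured, and in astrocytes it went from 1.79% in the shallowest cells to 2.53% in the deepest. Among cells of 600 to 1500 UMIs, a window chosen after the data had been seen, 69 subunits could be tested. In that window 3 were higher and 23 lower in neurons than in astrocytes, where 31.4% of all genes were higher and 29.0% lower, so the direction of the count turned. Against oligodendrocytes 15 were higher and 9 lower there, with 36.1 and 27.4% of all genes. Against OPC 14 were higher and 1 lower, with 26.0 and 22.6% of all genes, and against endothelial cells 27 were higher and 3 lower, with 36.9 and 28.0%. Against microglia 49 were higher and 0 lower, with 37.7 and 21.9% of all genes. Tanycytes were not fitted in the window.

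**Figure D2:**
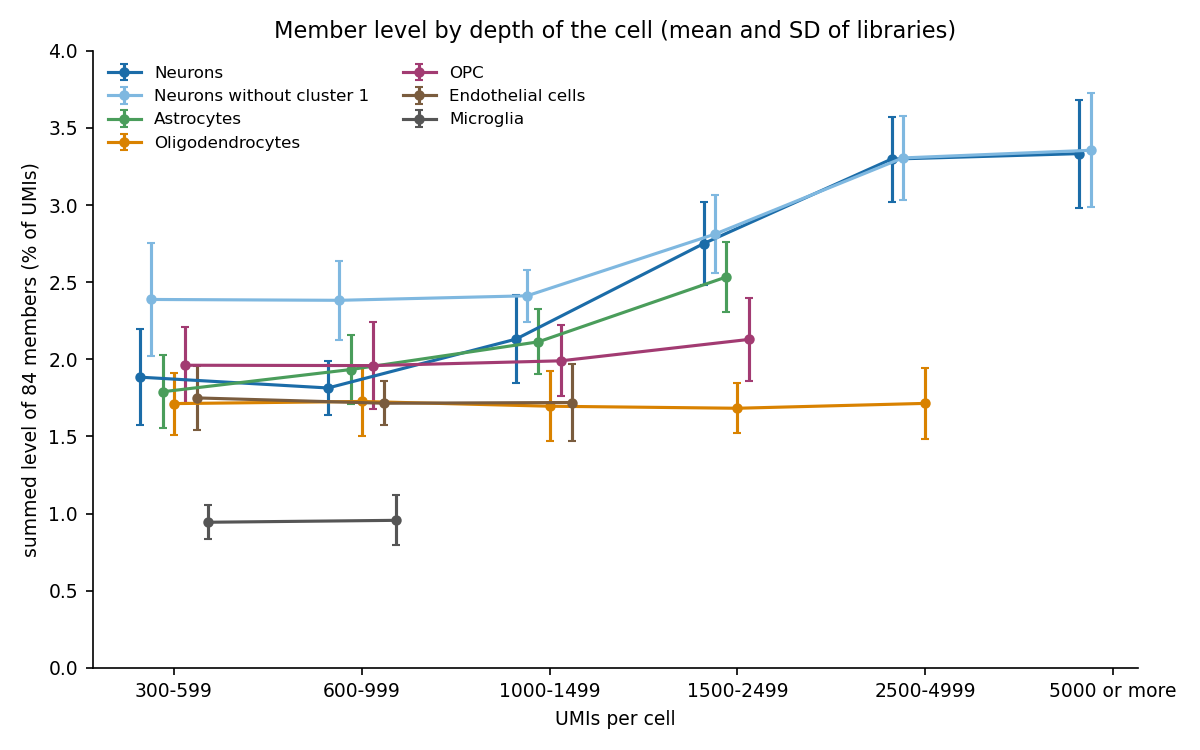
Summed share of the 84 genes in percent of all UMIs against the depth of the cells, in bins of UMIs per cell, with points at the mean and bars at the SD over libraries for each class. The neuron line climbs from 1.88 to 3.33% while the oligodendrocyte line stays near 1.70%.

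Part of the low share in shallow neurons came with a neuron cluster of 466 cells, whose leading genes included Avp, Oxt, Leng8, 2810055G20Rik and Miat, which had a median of 705 UMIs and a median of 10.4% mitochondrial UMIs per cell. Its summed share was 0.703% ± 0.040 (SD, n = 6 libraries), against 3.41% ± 0.310 in the largest neuron cluster, led by Gal, Tac2 and Trh. The noncoding RNAs Malat1, Meg3, Miat and Snhg11 together took 8.98% of its UMIs and 2.60% in the largest cluster, and their part in the low share was not tested. It made up 16.5, 9.82 and 17.8% of neurons in WT and 7.17, 16.7 and 20.7% in KO. Without it, the neuronal share was 2.39% ± 0.364 at 300 to 600 UMIs and 3.31% ± 0.273 at 2500 to 5000 UMIs. Neurons without this cluster, again a choice made after the data had been seen, had 38 subunits higher and 7 lower than astrocytes (38.9 and 34.5% of all genes) and 54 higher and 3 lower than oligodendrocytes (41.6 and 31.7%). In the depth window without this cluster, 5 were higher and 15 lower than in astrocytes (30.5 and 30.4% of all genes), and 27 higher and 5 lower than in oligodendrocytes (34.7 and 27.9%). There 30 were higher and 0 lower than in OPC (26.2 and 23.3% of all genes), 54 higher and 0 lower than in microglia (36.1 and 23.5%), and 34 higher and 2 lower than in endothelial cells (34.5 and 28.4%). The excess over microglia was thus present in each of these fits, and that over astrocytes was not.

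**Figure D3:**
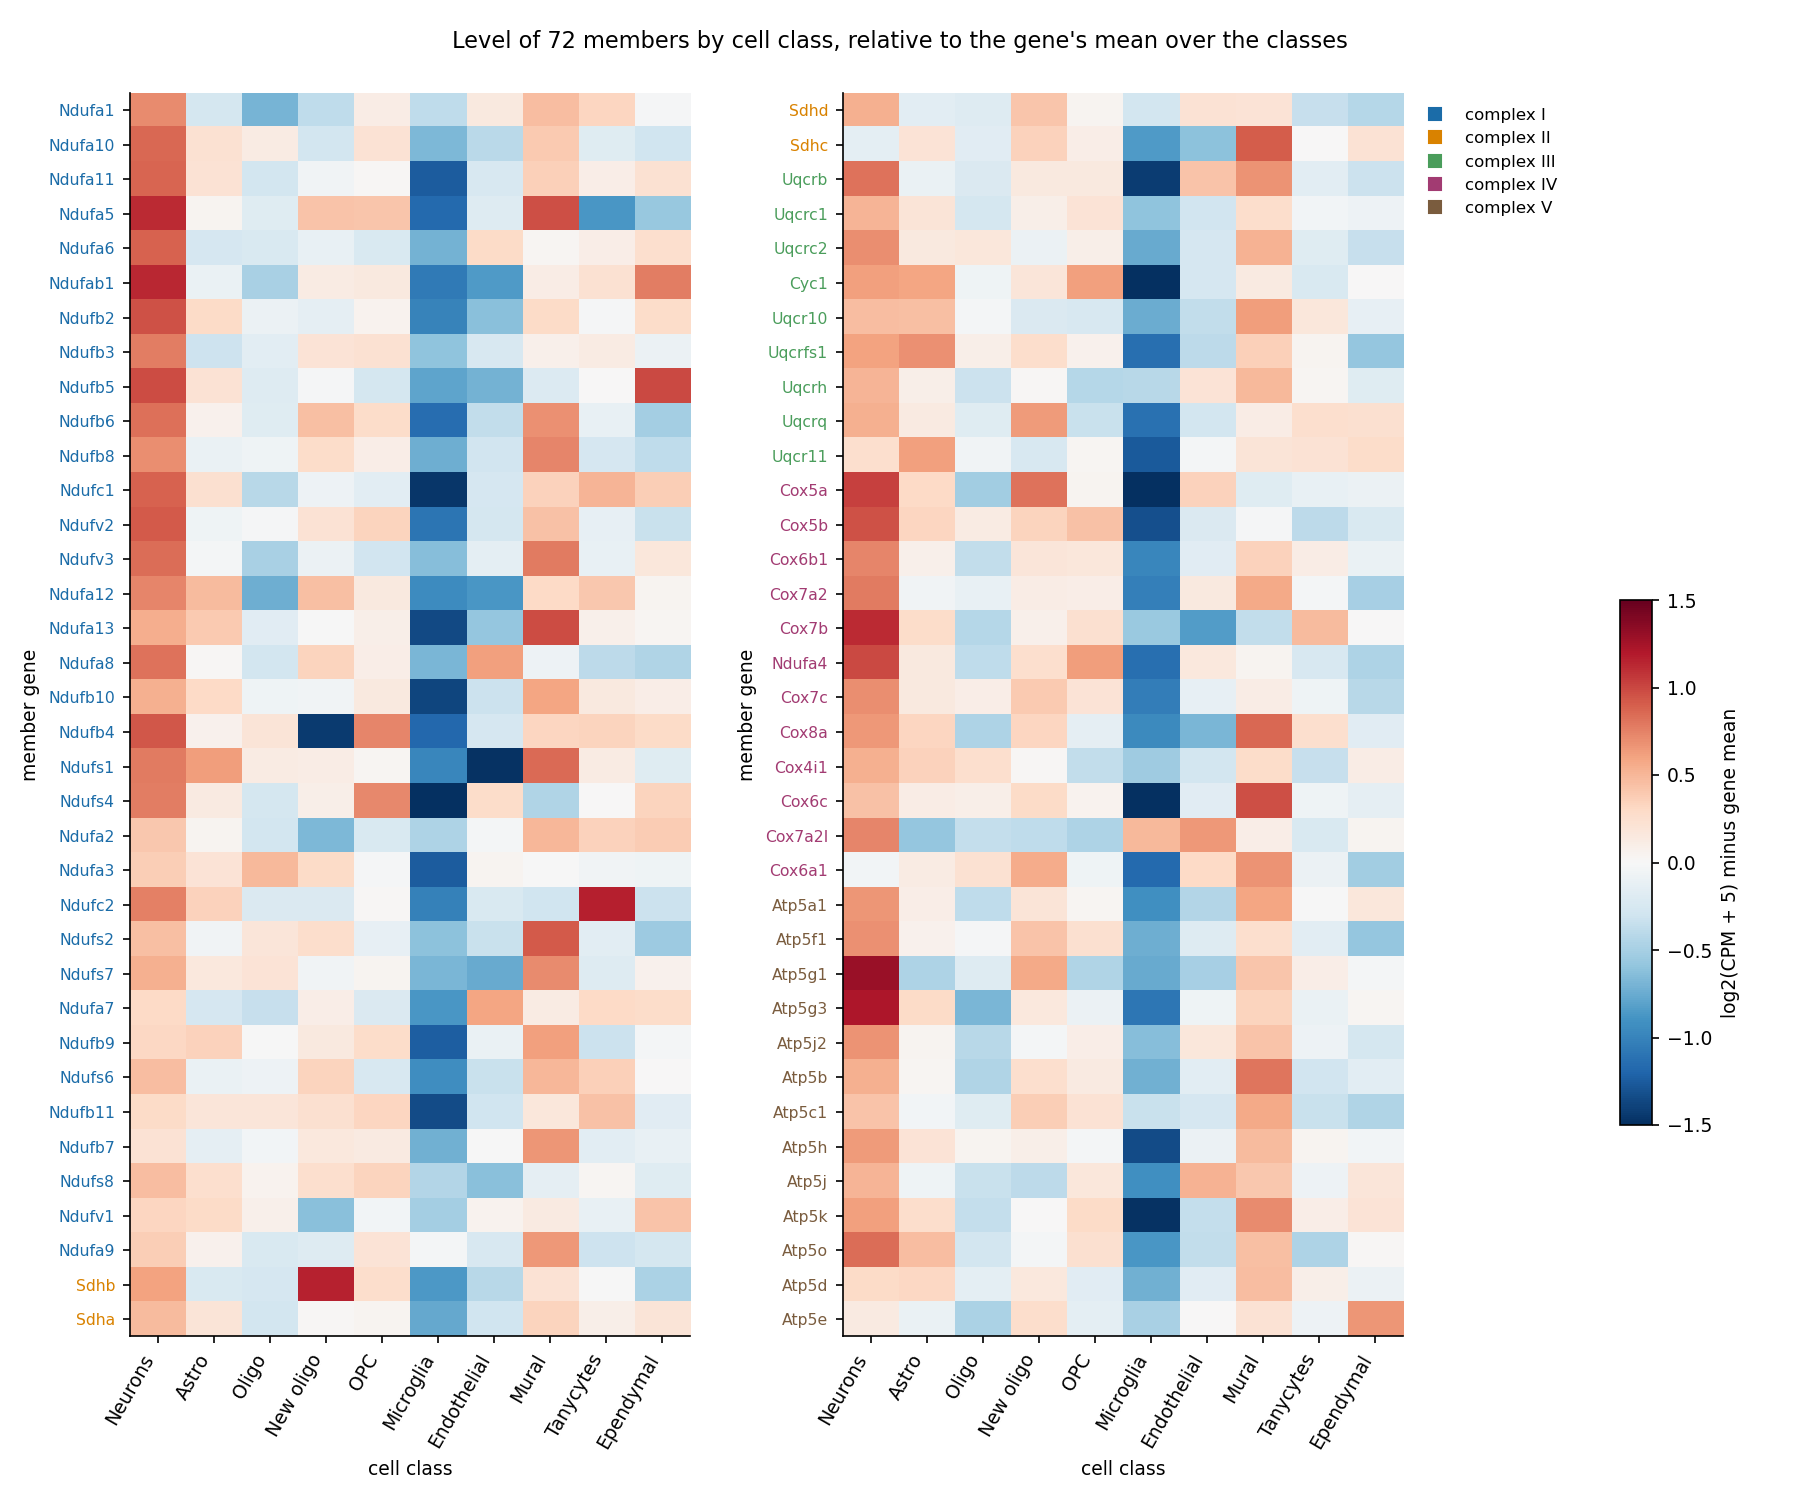
Level of each of the 72 tested subunits (lines, grouped by complex) in 10 cell classes (columns), as the log2 level of the class minus the mean of the gene over classes. The neuron column is mostly above the gene mean and the microglia column mostly below it.

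Complex I subunits were mostly called higher in neurons, except against astrocytes. Counts here and for the other complexes below read against the share of all genes called in the same comparison, given above. The depth window, where the count against astrocytes turned, was not split by complex. Of 34 tested, 33 were higher than in microglia, 29 than in endothelial cells, 27 than in OPC, 27 than in tanycytes, 24 than in oligodendrocytes and 17 than in astrocytes. Lower calls numbered 1 in astrocytes, 2 in oligodendrocytes, 1 in endothelial cells and 1 in tanycytes. The most abundant complex I transcript in neurons was Ndufc2, an accessory subunit of the membrane arm, at 668 CPM ± 83.4 (SD, n = 6 libraries).

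Ndufa5, an accessory subunit of the peripheral arm, was at 411, 445 and 573 CPM in WT neurons and 403, 451 and 550 CPM in KO neurons. In tanycytes it was at 101, 127 and 153 CPM in WT and 112, 136 and 60.4 CPM in KO. All neuronal values lay above all tanycyte values, with a log2 fold change of 1.98 ± 0.182 (SE, edgeR adjusted p = 1.13e-16). Ndufa5 was called higher in neurons against all 6 classes.

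Ndufab1, the mitochondrial acyl carrier protein that also sits in complex I, was at 205, 286 and 385 CPM in WT neurons and 231, 184 and 336 CPM in KO neurons. In astrocytes it was at 97.7, 116 and 131 CPM in WT and 104, 72.3 and 157 CPM in KO. The groups did not overlap, and the log2 fold change was 0.91 ± 0.141 (SE, edgeR adjusted p = 1.92e-08). It was 2.03 ± 0.215 against endothelial cells (edgeR adjusted p = 3.53e-14) and 1.34 ± 0.141 against oligodendrocytes (edgeR adjusted p = 2.68e-14).

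Ndufs1, the large iron-sulphur subunit of the peripheral arm, was at 132, 156 and 147 CPM in WT neurons and 121, 116 and 117 CPM in KO neurons. In endothelial cells it was at 21.8, 17.1 and 13.7 CPM in WT and 48.9, 11.6 and 27.0 CPM in KO, from 14 UMIs in all. Every endothelial value was below every neuronal value (log2 fold change 2.31 ± 0.297 SE, edgeR adjusted p = 5.84e-11). Ndufs4, a subunit whose loss causes a Leigh-like encephalopathy, was at 204 CPM ± 18.7 (SD, n = 6 libraries) in neurons and 35.7 CPM ± 32.0 in microglia, where 11 UMIs were counted and WT2 and WT3 had 0 (log2 fold change 2.15 ± 0.351 SE, edgeR adjusted p = 1.14e-07).

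Lower calls in complex I were few in this fit. Ndufc2 was lower in neurons than in tanycytes, with 590 to 802 CPM against 815 to 963 CPM, a log2 fold change of -0.42 ± 0.120 (SE, edgeR adjusted p = 0.00186). The libraries of the classes did not overlap. Ndufa7 was lower than in endothelial cells by -0.37 ± 0.152 on the log2 scale (edgeR adjusted p = 0.0239). Ndufa3 was called lower in neurons than in oligodendrocytes under TMM scaling (log2 fold change -0.45 ± 0.111 SE, edgeR adjusted p = 1.89e-04), but its value turned to 0.019 with library sizes alone. Its levels overlapped, with 249 to 380 CPM in neurons and 218 to 464 CPM in oligodendrocytes.

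In complex II, which oxidises succinate and also belongs to the Krebs cycle, Sdha, Sdhb and Sdhd were mostly called higher in neurons and Sdhc was not. Sdhb, the iron-sulphur subunit, was the most abundant in neurons at 350 CPM ± 39.3 (SD, n = 6 libraries) and was called higher there against all 6 classes, with log2 fold changes of 0.52 to 1.24. Sdha, the flavoprotein, at 259 CPM ± 22.2, was called higher in 5 of 6 comparisons, with -0.06 against astrocytes the value not called. Sdhd was called higher in 4 of 6, and neither Sdha, Sdhb nor Sdhd was called lower in any.

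Sdhc, a membrane anchor of complex II, was the only tested subunit called higher in neurons against none of the 6 classes. It was at 136, 137 and 145 CPM in WT neurons and 136, 149 and 170 CPM in KO neurons. In astrocytes it was at 192, 145 and 212 CPM in WT and 139, 190 and 244 CPM in KO. The astrocyte values were higher as a group but overlapped those of neurons, and the log2 fold change was -0.68 ± 0.122 (SE, edgeR adjusted p = 6.99e-07). Against oligodendrocytes Sdhc was called lower under TMM scaling (-0.31 ± 0.122 SE, edgeR adjusted p = 0.0203), but its value was 0.16 with library sizes alone.

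In complex III, which passes electrons from ubiquinol to cytochrome c, all 9 tested subunits were higher in neurons than in microglia, 8 than in OPC, 7 than in tanycytes, 6 than in endothelial cells and 5 than in oligodendrocytes. Against astrocytes 2 were called higher and 4 lower under TMM scaling: Uqcr11, Uqcr10, Uqcrfs1 and Cyc1. For 2 of these the unscaled mean levels stood level or the other way, with Cyc1 at 206 CPM in neurons and 203 CPM in astrocytes and Uqcr10 at 382 and 380 CPM. Of the summed UMIs of the 84 genes, complex III took 11.7% ± 0.343 in astrocytes and 9.86% ± 0.280 in neurons (SD, n = 6 libraries). The most abundant in neurons was Uqcrq at 482 CPM ± 74.7. Uqcrfs1, the Rieske iron-sulphur protein, was at 263 CPM ± 31.3 and the haem protein Cyc1 at 206 CPM ± 31.5.

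Uqcr11, a small subunit of the complex, was at 304, 170 and 296 CPM in WT neurons and 221, 233 and 217 CPM in KO neurons. In astrocytes it was at 388, 154 and 343 CPM in WT and 243, 354 and 378 CPM in KO. Within a library the astrocyte level was the higher in 5 of 6, with WT2 the exception, and the class ranges overlapped. The log2 fold change was -0.72 ± 0.123 (SE, edgeR adjusted p = 2.08e-07). Uqcr11 and Cox6a1 both carry the NRF1 and ETS letters in the promoters shown above. So do Sdhb, called higher in neurons against all 6 classes, and Atp5j and Atp5k, each called higher against 5. A link of the letters to the levels was not tested.

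Cycs, the soluble electron carrier cytochrome c, had too few counts in some classes to be tested between them. It was at 79.7 CPM ± 16.1 (SD, n = 6 libraries) in neurons and 32.8 CPM ± 12.0 in astrocytes. The neuronal values ran from 58.7 to 100 CPM and the astrocyte values from 17.4 to 45.4 CPM, without overlap.

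Complex IV, cytochrome c oxidase, to which Ndufa4 and Ndufa4l2 were counted, had 12 of its 19 genes tested. Of these, 11 were higher in neurons than in microglia, 11 than in OPC, 11 than in tanycytes, 10 than in endothelial cells, 9 than in oligodendrocytes and 7 than in astrocytes. Cox4i1, the regulatory subunit that binds ATP, was the most abundant of the 84 genes in neurons at 1320 CPM ± 102 (SD, n = 6 libraries), followed by Ndufa4 at 1085 CPM ± 148. Cox4i1 was not called against astrocytes, with a log2 fold change of -0.13, nor against oligodendrocytes, with -0.06.

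Cox5a, a nuclear subunit on the matrix side, was at 614, 628 and 678 CPM in WT neurons and 554, 518 and 610 CPM in KO neurons. In microglia it was at 83.5, 85.7 and 78.2 CPM in WT and 62.5, 84.6 and 156 CPM in KO, from 27 UMIs in all. The groups lay far apart, with a log2 fold change of 2.42 ± 0.219 (SE, edgeR adjusted p = 4.85e-17), which was the largest of the 72 in that comparison. Against oligodendrocytes it was 1.24 ± 0.114 (edgeR adjusted p = 3.24e-17). Cox5b differed from microglia by 2.13 ± 0.232 (edgeR adjusted p = 1.70e-13), and Cox7b from endothelial cells by 1.93 ± 0.170 (edgeR adjusted p = 6.60e-18).

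Cox6a1, the widely expressed form of subunit VIa, was called lower in neurons against 3 classes. In neurons it was at 612, 498 and 683 CPM in WT and 529, 549 and 584 CPM in KO. In oligodendrocytes it was at 835, 472 and 881 CPM in WT and 530, 720 and 734 CPM in KO, higher than neurons in every library but WT2. The log2 fold change there was -0.59 ± 0.104 (SE, edgeR adjusted p = 3.59e-07), but with library sizes alone it was -0.12 and not called. It was -0.47 ± 0.107 against astrocytes (edgeR adjusted p = 5.82e-05) and -0.39 ± 0.118 against endothelial cells (edgeR adjusted p = 0.00223). With library sizes alone the astrocyte value was -0.07 and not called.

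The alternative isoforms were described by their use in each class. The share of an isoform within its family is given over pooled UMIs with an exact Clopper-Pearson 95% interval, which covers counting error only, and carries no test between classes. Ndufa4l2, the paralog of Ndufa4, was found in mural cells, the pericytes and smooth muscle of vessels. It made up 30% (20.8 to 40.6%) of Ndufa4 and Ndufa4l2 UMIs in mural cells, 27 of 90, against 0.0409%, 3 of 7332, in neurons. Its mural levels were 138, 133 and 297 CPM in WT and 245, 268 and 208 CPM in KO, so all 6 libraries had it, at 1 to 8 UMIs each. The ratio of the mural to the neuronal CPM was 504 (155 to 2596). The endothelial share was 2.30%, 8 of 348.

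Cox4i2, the isoform of Cox4i1 linked to oxygen sensing in lung and smooth muscle, showed a like distribution on fewer counts. It made up 9.82% (5.72 to 15.5%) of the pair in mural cells, 16 of 163 UMIs, with 8, 0 and 0 UMIs in WT and 3, 2 and 3 in KO. WT1 thus gave 8 of those 16 UMIs. The share was 0.0222% in neurons, 2 of 9018, and 1.39% in endothelial cells, 6 of 433.

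Among the paired isoforms of complex IV, Cox6b2, known as the testis form, made up 12.8% (9.18 to 17.1%) of Cox6b UMIs in tanycytes, 8.30% in ependymal cells, 6.23% in astrocytes over both genotypes and 0.403% (0.243 to 0.628%) in neurons. Tanycytes had it at 26.6, 84.5 and 115 CPM in WT and 84.3, 68.1 and 90.6 CPM in KO, above the neuronal range of 1.44 to 6.41 CPM in each library. Cox6a2, the heart and muscle form of subunit VIa, made up 4.31% (3.71 to 4.97%) of Cox6a UMIs in neurons, 1.60% in astrocytes and 0.0829%, 1 of 1206, in oligodendrocytes. Its tanycyte share of 8.06% (5.46 to 11.4%) rested on KO2, which gave 15 of 29 UMIs. Cox7a1, also a muscle form, made up 4.24% of its family in ependymal cells, 3.76% in tanycytes and 0.401% in neurons. Cox8b, the muscle form of subunit VIII, had 0 UMIs in neurons, where a count of 0 allows up to 3.

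Cox7a2l, counted here in the Cox7a family, was at 299, 227 and 204 CPM in WT neurons and 231, 256 and 217 CPM in KO neurons. In astrocytes it was at 94.7, 96.4 and 101 CPM in WT and 92.8, 91.4 and 80.3 CPM in KO. Neurons were higher in every library, with a log2 fold change of 1.10 ± 0.150 (SE, edgeR adjusted p = 3.65e-10), and 1.48 ± 0.198 against OPC (edgeR adjusted p = 3.72e-10). In microglia, where most subunits were low, Cox7a2l was at 201 CPM ± 43.0 (SD, n = 6 libraries). It made up 52.8% (42.9 to 62.5%) of the Cox7a family there, 57 of 108 UMIs, against 25.9% (24.8 to 26.9%) in neurons and 18.6% in astrocytes. By library the microglial share ran from 25.0 to 75.0%, on few UMIs each.

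**Figure D4:**
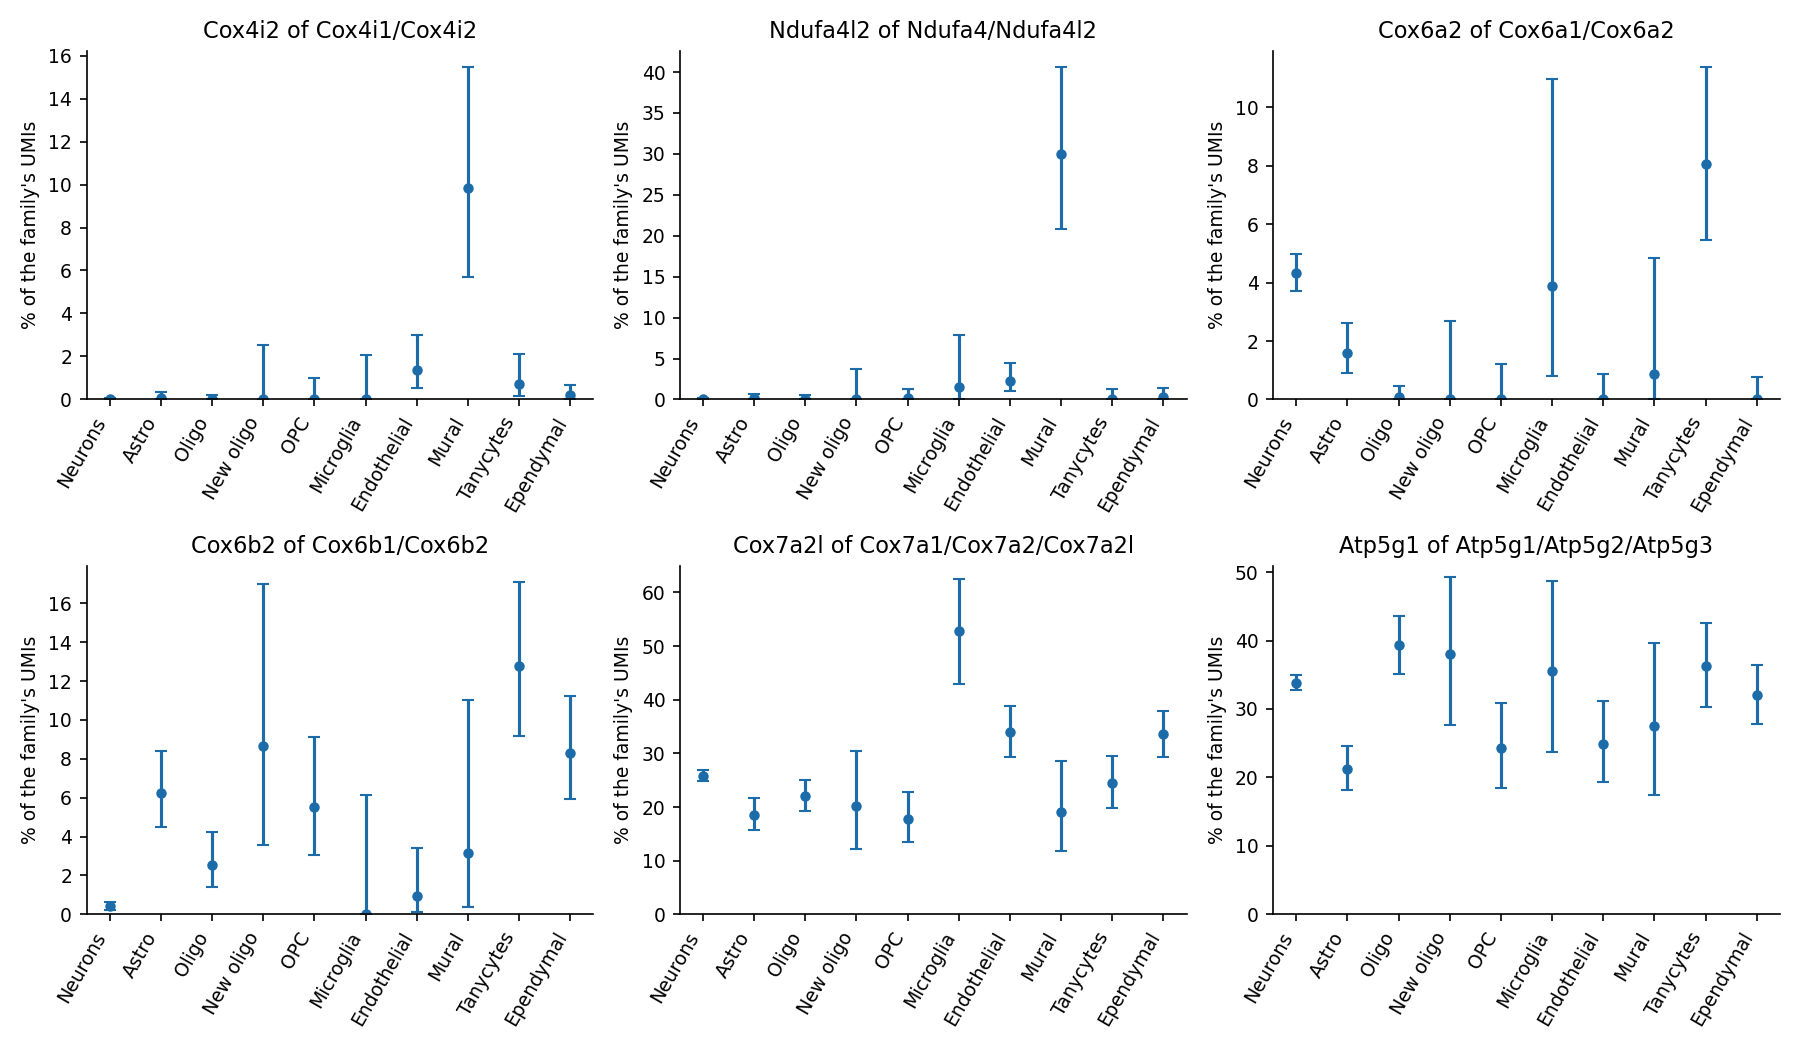
Share of an isoform within its family, in percent of the family's pooled UMIs, by cell class, with exact 95% binomial intervals, in 6 panels. Ndufa4l2 stands out in mural cells at 30%, Cox6b2 in tanycytes at 12.8% and Cox7a2l in microglia at 52.8%.

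ATP synthase had 13 of its 15 genes tested. All 13 were higher in neurons than in OPC, 12 than in microglia, 12 than in oligodendrocytes, 11 than in endothelial cells, 11 than in tanycytes and 6 than in astrocytes. The astrocyte count stood nearest to the share of all genes called higher. Atp5b, the catalytic beta subunit, was the most abundant in neurons at 745 CPM ± 96.7 (SD, n = 6 libraries), and Atp5a1, the alpha subunit, was at 680 CPM ± 80.0. Atp5a1 was called higher in neurons against all 6 classes and Atp5b against 5. Of the UMIs of the 84 genes, ATP synthase took 22.3% ± 0.414 in neurons and 20.1% ± 0.656 in oligodendrocytes.

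Differences in ATP synthase were widest for the c subunit of the membrane rotor, which is encoded by Atp5g1, Atp5g2 and Atp5g3 with the same mature protein. Atp5g1 was at 419, 293 and 376 CPM in WT neurons and 298, 325 and 319 CPM in KO neurons. In astrocytes it was at 127, 106 and 95.8 CPM in WT and 69.6, 76.1 and 104 CPM in KO. Neurons were higher in all libraries with no overlap, by a log2 fold change of 1.5 ± 0.126 (SE, edgeR adjusted p = 4.64e-19), and by 2.04 ± 0.176 against OPC (edgeR adjusted p = 4.79e-18).

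Atp5g3 was at 691, 762 and 644 CPM in WT neurons and 622, 660 and 748 CPM in KO neurons. In oligodendrocytes it was at 185, 190 and 157 CPM in WT and 198, 124 and 228 CPM in KO. Again no library overlapped, and the log2 fold change was 1.59 ± 0.114 (SE, edgeR adjusted p = 1.27e-22). It was 1.46 ± 0.134 against OPC (edgeR adjusted p = 1.37e-16). Atp5g1 made up 39.3% of the family's UMIs in oligodendrocytes, 33.8% in neurons and 21.2% (18.1 to 24.6%) in astrocytes.

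A further fit took in mural and ependymal cells, as classes of at least 10 cells per library, and was chosen after the data had been seen. It tested 74 subunits among 5105 genes. Against mural cells 30 were higher in neurons and 2 lower, where 31.4% of all genes were higher and 16.5% lower. The lower ones were Ndufa4l2, which entered this fit through the classes in which it is high and whose call therefore supports nothing, and Sdhc at -0.80 ± 0.266 on the log2 scale (edgeR adjusted p = 0.00831). Against ependymal cells 57 were higher and 2 lower, where 36.5% of all genes were higher and 33.5% lower. Here the lower ones were Atp5e, the epsilon subunit, at -0.57 ± 0.132 (edgeR adjusted p = 6.70e-05), and Sdhc at -0.42 ± 0.153 (edgeR adjusted p = 0.0112).

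Between neuron types differences were small. GABAergic neurons (2001 cells) devoted 3.17% of UMIs to the 84 genes and glutamatergic neurons (507 cells) 3.02%. Of 76 subunits tested, 0 were called higher in GABAergic neurons and 1 lower, where 3.72% of the 7525 genes were higher and 5.83% lower, and 6 had an unadjusted edgeR p under 0.05. The subunit called was Uqcrc1, a core protein of complex III, at 193, 135 and 215 CPM in WT and 157, 180 and 217 CPM in KO in GABAergic neurons. In glutamatergic neurons it was at 229, 211 and 279 CPM in WT and 175, 173 and 309 CPM in KO. The values overlapped, with a log2 fold change of -0.35 ± 0.107 (SE, edgeR adjusted p = 0.0326). The call was lost with DESeq2, with library sizes alone and without WT1, WT2, WT3 or KO3, and with doublets kept 8 subunits were called lower. Among cells of 600 to 1500 UMIs 9 of 50 were called higher in GABAergic neurons and 0 lower, where 6.88% of all genes were higher and 13.0% lower. Over 12 neuron clusters of 65 to 522 cells, leaving out the one low in these genes, the summed share ran from 2.40% ± 0.205 (SD over libraries) in the cluster led by Avp, Rora and Igfbp5 to 3.41% ± 0.310 in the largest.

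Loss of IDOL gave no subunit whose change was called, in any class. With edgeR's quasi-likelihood test, 0 of 81 subunits were called over all cells and 0 of 77 in neurons, 77 in GABAergic neurons, 75 in glutamatergic neurons, 73 in astrocytes, 73 in oligodendrocytes, 66 in OPC, 13 in microglia, 60 in endothelial cells and 69 in tanycytes. Calls were rare among all genes too, at 0.0% over all cells, 0.0306% in neurons, 0.0229% in GABAergic and 0.0225% in glutamatergic neurons, 0.0476% in astrocytes, 0.0729% in oligodendrocytes, 0.0% in OPC, 0.138% in microglia, 0.0% in endothelial cells and 0.0% in tanycytes. At an unadjusted p under 0.05 there were 1, 3, 2, 2, 2, 2, 6, 1, 0 and 1 subunits in the same order, and DESeq2 called 0 in each. A difference of the genotype effect between neurons and the other named cells was called for 0 of 79 subunits and 0.0% of 11998 genes, with 1 subunit at an unadjusted p under 0.05.

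**Figure D5:**
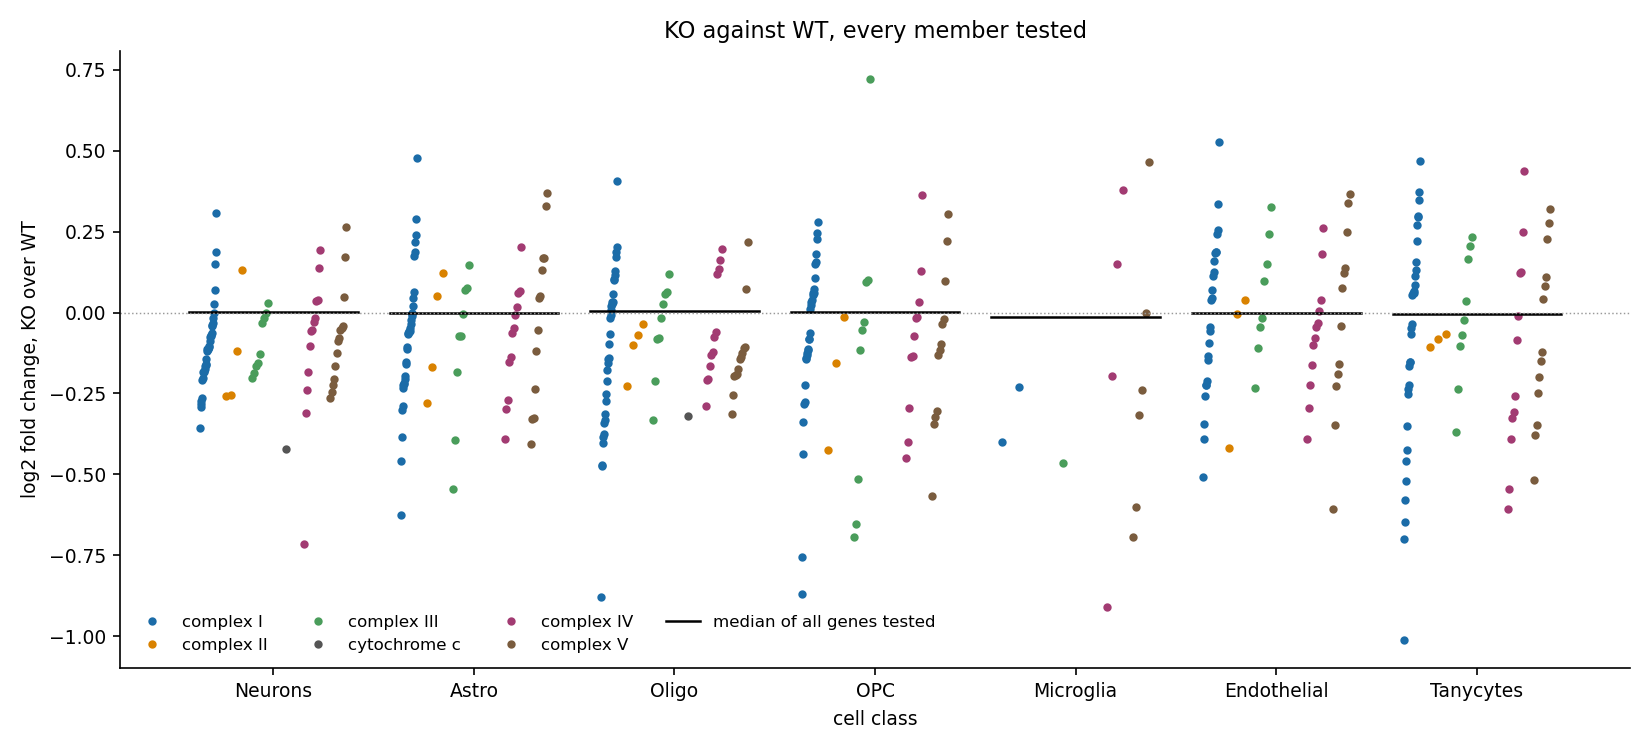
Log2 fold change of KO over WT for each tested subunit, by cell class, coloured by complex, with a black line at the median of all genes of that class. Points lie on both sides of 0 in every class, with more below than above, and 0 were called.

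The values leaned below 0. In sums over all cells, fewer cells of a type and less RNA per cell cannot be told apart. Of the subunits tested, 63 of 81 had a lower estimate in KO over all cells (median log2 fold change -0.07), where 48.5% of all genes did. In neurons 62 of 77 did (median -0.11, 49.8% of all genes), in astrocytes 48 of 73 (median -0.06, 50.1%), in oligodendrocytes 49 of 73 (median -0.11, 49.7%), in OPC 42 of 66 (median -0.08, 49.9%), in endothelial cells 32 of 60 (median -0.02, 50.1%) and in tanycytes 40 of 69 (median -0.07, 50.7%). The classes come from the same 6 libraries and subunits of a cell vary together, so these counts are a description with no test. WT3 weighed on them: without it, 45 of 77 were below 0 in neurons and 33 of 75 in astrocytes. WT3 had the highest summed share in neurons, at 3.34%, and the ranges of the genotypes overlapped.

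Ndufa8, an accessory subunit of complex I, was among the 3 smallest p-values over all cells, in neurons, in GABAergic neurons and in oligodendrocytes. In neurons it was at 358, 403 and 347 CPM in WT and 285, 282 and 292 CPM in KO. The groups did not overlap, yet the log2 fold change of -0.36 ± 0.150 (SE) had an unadjusted edgeR p of 0.0266 and an adjusted p of 0.987. Cycs in neurons was at 100, 80.9 and 92.8 CPM in WT and 63.7, 81.7 and 58.7 CPM in KO, which overlapped at KO2 and WT2, with -0.42 ± 0.188 and an edgeR adjusted p of 0.987. Cox6a2 was at 39.0, 20.2 and 28.4 CPM in WT and 19.7, 16.5 and 20.3 CPM in KO, with -0.72 ± 0.281 and an edgeR adjusted p of 0.987. KO3 and WT2 lay at the same level.

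Cox6b2, among the 3 smallest p-values over all cells, was at 7.96, 12.5 and 17.4 CPM in WT and 14.3, 20.8 and 26.5 CPM in KO, which overlapped. Its log2 fold change was 0.74 ± 0.359 (SE, edgeR adjusted p = 1). In astrocytes, a class singled out after its values were seen and where the gene had too few counts to be tested, Cox6b2 was at 17.8, 19.3 and 5.04 CPM in WT and 52.2, 41.9 and 36.8 CPM in KO. Those values did not overlap and rest on 40 UMIs, and the Cox6b2 share of the pair was 3.23% ± 2.02 in WT and 10.5% ± 4.54 in KO (SD, n = 3 libraries).

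In other classes the smallest p-values fell on other genes. Ndufa1, an accessory subunit of complex I, was at 145, 102 and 150 CPM in WT oligodendrocytes and 67.3, 69.7 and 76.8 CPM in KO oligodendrocytes, without overlap. Its log2 fold change was -0.88 ± 0.277 (SE, edgeR adjusted p = 0.485). Ndufa7 was at 420, 275 and 687 CPM in WT tanycytes and 253, 185 and 211 CPM in KO tanycytes, with -1.01 ± 0.345 (edgeR adjusted p = 0.994). The groups did not overlap, and WT3 lay far above the rest. In OPC Ndufa7 had -0.76, Uqcrq 0.72 and Atp5j -0.57, and in astrocytes Ndufb8 had -0.63, Uqcrb -0.55 and Ndufv1 0.48, none of them called. Atp5h in endothelial cells had -0.61, which turned to 0.092 without WT1. Summed over its 4 genes, complex II in neurons was 0.0951% ± 0.000705 (SD, n = 3 libraries) of UMIs in WT and 0.0851% ± 0.00613 in KO, without overlap; 3 libraries against 3 allow no exact permutation p under 0.1.

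The genes around the chain were counted from lists for the same contrasts, and each count reads against the share of all genes called: 38.6% higher and 33.6% lower for astrocytes, 42.0 and 31.3% for oligodendrocytes, 34.2 and 26.6% for OPC, 39.0 and 25.8% for microglia, 40.5 and 31.0% for endothelial cells and 33.9 and 26.8% for tanycytes. Of 8 tested subunits encoded by the mitochondrial genome, 0 were higher and 7 lower in neurons than in astrocytes, with mt-Co1 at -1.15 ± 0.117 on the log2 scale (edgeR adjusted p = 6.48e-15), while 7 were higher and 0 lower than in OPC. Of 14 Krebs cycle and pyruvate dehydrogenase genes, 5 were higher and 3 lower than in astrocytes, 10 and 1 for oligodendrocytes, 9 and 0 for OPC, 11 and 0 for microglia, 12 and 0 for endothelial cells and 10 and 0 for tanycytes. Citrate synthase, Cs, was lower in neurons than in astrocytes by -1.58 ± 0.138 (edgeR adjusted p = 3.48e-18). Of 48 listed assembly factors 42 were in the expression table, and only 8 of those had enough counts to be tested. Of these, 4 were higher and 1 lower than in astrocytes, 6 and 1 for oligodendrocytes, 5 and 0 for OPC, 6 and 0 for microglia, 7 and 0 for endothelial cells and 4 and 1 for tanycytes. Of 10 carriers and pores, 7 were higher and 2 lower than in astrocytes, and Atpif1, the inhibitor of ATP synthase, was higher by 1.89 ± 0.125 (edgeR adjusted p = 8.51e-25). Of 11 tested glycolysis genes, 5 were higher and 4 lower than in astrocytes, near the share of all genes, and 11 and 0 for oligodendrocytes, 8 and 2 for OPC, 8 and 1 for microglia, 10 and 0 for endothelial cells and 6 and 3 for tanycytes.

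Ppargc1a, the coactivator PGC-1 alpha that promotes transcription of respiratory genes, was lower in neurons than in astrocytes by -2.54 ± 0.224 on the log2 scale (edgeR adjusted p = 5.99e-18) and higher than in oligodendrocytes by 3.89, than in microglia by 2.62 and than in endothelial cells by 1.94. Between genotypes mt-Nd3 was the only gene of these lists called, with 0, 0 and 0 UMIs over all cells in WT and 285, 713 and 104 in KO. It encodes a core subunit of complex I and was called in neurons, GABAergic neurons, astrocytes and oligodendrocytes. Every KO library had it and no WT library did, while other genes of the mitochondrial genome were counted in all 6. Whether all libraries were counted against the same annotation, and whether their mitochondrial genomes are the same, is not given in the sources used here, so a listed 0 may not mean absent RNA and the call cannot be told apart from such a difference.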

How the data were processed

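Hypothalamus libraries of 3 WT and 3 KO preparations were grouped by their titles. The authors deposited raw UMI counts per gene and barcode in a single table, for which the submitters' processing notes name bcl2fastq, STAR 2.5.0c and the builds mm10 and GRCm38. The counting program and its treatment of shared reads are not given in the sources used here. Barcodes with at least 300 genes and at most 20% mitochondrial UMIs were kept (9449), and Scrublet (expected rate 0.05) in scanpy 1.11.5 removed 116 doublets (1.23%). Cells were clustered on 2000 variable genes, 30 components and 15 neighbours with Leiden at resolution 1 (leidenalg 0.10.2), leaving out the 84 genes and the mitochondrial genome, and clusters were named from marker lists by a scoring rule set after the clusters had been seen.

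UMI counts were summed per library and class (at least 20 cells in each library) and tested by the quasi-likelihood F-test of edgeR 4.0.16 (R 4.3.3) after filterByExpr and TMM scaling, with Benjamini-Hochberg adjustment over all genes tested and a threshold of 0.05. Class contrasts had library as a factor. Cells of a library are not replicates. In the genotype fits p-values measure the spread between libraries, which may be technical. In the class contrasts they measure how class differences within a library vary among libraries. On simulated data 196 of 197 changed genes were recovered with 12 false calls among 9760 genes for KO against WT in neurons. For neurons against astrocytes 170 of 182 were recovered, with 9 false calls among 3485 genes. Recovery of changes as small as the KO over WT estimates reported above was not tested. Named genes were the most abundant of each complex, the 3 called with the largest change in each direction per contrast, the 3 smallest p-values per genotype comparison, and, whatever their values, the isoform families and a set of core subunits (among them Ndufs4, Sdha, Sdhb, Uqcrc1, Uqcrfs1, Cyc1, Cycs, Atp5a1 and Atp5b). The genes, lists and contrasts were chosen with earlier results of these data known. Alternatives were RLE factors, no gene filter, DESeq2 1.42.0, other cell filters and clustering, a replicate block and each library left out.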

Additional observations from a re-analysis of the deposited data

How the results depend on the processing

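Counts over the 84 genes gave 533 alternative values within 1.5 times the reported count and 51 outside it. Of summed levels 566 values moved by less than 1 SD and 22 by more. Of single genes between classes 450 kept direction and call, 28 lost the call and 2 reversed, and between genotypes 469 kept both and 1 reversed. Fewest subunits could be tested between genotypes in microglia (13 from 391 cells), and 50% of 2 were below 0 with clustering at resolution 0.5. In the depth window of 600 to 1500 UMIs the subunits higher and lower in neurons numbered 3 and 23 against astrocytes, 15 and 9 against oligodendrocytes, 14 and 1 against OPC and 27 higher against endothelial cells, and 9 and 0 were higher and lower in GABAergic than in glutamatergic neurons. In that window without the neuron cluster low in these genes, 5 were higher and 15 lower against astrocytes, and 27, 30 and 34 higher against oligodendrocytes, OPC and endothelial cells. Without that cluster alone 1 was lower against endothelial cells. These settings and library sizes alone were chosen after seeing the data, and the window holds fewer cells and fewer tested genes.

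Against astrocytes, RLE factors gave 22 higher and 15 lower, library sizes alone 62 and 2, and lower calls numbered 17 with DESeq2, 5 with no gene filter and 5 with at most 10% mitochondrial UMIs. Library sizes alone gave 0 lower against oligodendrocytes, 1 against endothelial cells, and 3 higher and 0 lower between GABAergic and glutamatergic neurons, and turned Ndufa3 to 0.019 and Sdhc to 0.16 against oligodendrocytes. Lower calls against oligodendrocytes were 2 with at least 500 genes per cell and 2 at resolution 0.5. Against endothelial cells 1 was lower with at least 500 genes. No gene filter and DESeq2 each gave 1 lower against OPC and 3 lower against tanycytes. Between GABAergic and glutamatergic neurons no gene filter gave 3 higher and 0 lower, DESeq2 0 lower, at least 500 genes 2, at most 10% mitochondrial UMIs 2, doublets kept 8 and the 84 genes among the variable genes 8. The cause of these shifts was not tested.

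Leaving out each library in turn gave 2 to 3 lower against oligodendrocytes, 1 to 2 lower against endothelial cells, and 0 to 1 higher and 0 to 1 lower between the neuron types, where the call of Uqcrc1 was lost without WT1, WT2, WT3 or KO3. The KO over WT value of Atp5h in endothelial cells, -0.61, ran from -0.984 without WT3 to 0.092 without WT1. Same-numbered WT and KO libraries had deviations with correlations of 0.29, -0.18 and 0.31, and differently numbered ones from -0.441 to 0.201. With so few libraries per group this cannot settle whether the numbers pair the samples. A replicate block in the genotype fits left 0 subunits called, and 77.8% below 0 over all cells, as without it.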
